A study of Drosophila melanogaster with 3 samples.

Results

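The dense clusters described here are stretches of the Drosophila genome in which peaks of GFP-tagged Lozenge (lz) lay close together. They were chosen by position alone: the summits of the 8048 peaks of the thresholded set were chained along each chromosome wherever neighbours were at most 2000 bp apart, and chains of 5 or more summits were kept. This rule gave 53 clusters with 299 peaks, which is 3.72% of the thresholded set (exact 95% binomial interval 3.31% to 4.15%). The number and spacing of summits in a cluster are therefore what selected it and are given as a description. Intervals here cover counting error only, and neighbouring peaks are not independent replicates.

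The peaks came from ChIP-seq, in which DNA bound by a protein is recovered with an antibody and sequenced. The flies were of the strain lz-GFP, a transgenic line that stably carries lz with GFP joined to its C-terminal end, collected as whole white prepupae with males and females pooled and of unknown age, and the precipitation used an anti-GFP antibody. There were 3 biological replicates of this 1 group and no second condition, and whole animals were used, so a cluster cannot be assigned to a tissue. Each replicate has its own list of peaks, here taken to the 8048 peaks with the highest signal so that all lists had the same length.

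Lozenge is a transcription factor of the Runx family, whose members bind DNA through the Runt domain together with a partner subunit. In flies it is known for its role in prepatterning cells of the developing eye and in the formation of crystal cells, a blood cell type, where it acts with the GATA factor Serpent. Dense groups of binding sites around one gene are a known property of many developmental regulators, whose introns and flanks hold several enhancers.

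Windows reaching 50 bp to either side of the summit show what the strongest positions of the leading clusters look like. The first set holds the strongest summit outside exons in 4 of the clusters with the most summits, in the dm6 build and on the plus strand. Capitals mark a GATA match, which among these 4 occurred only in the Moe window. The same kind of window in the lncRNA:CR43883 cluster, not printed here, also held a GATA match. Those of the CG6163 and fng clusters, also not printed, held none. Over all summits a GATA match was in 24.1% of cluster windows and 22.2% of other windows, so nothing is read from these few.
Raf intron, chrX:2300652-2300752: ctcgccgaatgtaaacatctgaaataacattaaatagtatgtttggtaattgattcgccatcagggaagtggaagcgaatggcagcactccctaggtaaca
CG43389 promoter, chr3L:3247627-3247727: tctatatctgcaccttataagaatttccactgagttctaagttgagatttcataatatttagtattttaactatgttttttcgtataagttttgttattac
Dyro promoter, chr3L:11296183-11296283: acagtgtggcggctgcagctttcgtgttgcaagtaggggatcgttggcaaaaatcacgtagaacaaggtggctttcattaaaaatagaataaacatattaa
Moe intron, chrX:8896250-8896350: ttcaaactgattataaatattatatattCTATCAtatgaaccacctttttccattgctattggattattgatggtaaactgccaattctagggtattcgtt
The second set holds summits of clusters with a match to the Runx consensus, the motif family of Lozenge. No printed window of the first set held such a match. The letters searched on both strands were AACCACA and its form AACCGCA, together with the pair that starts with G, which is GACCACA and its form GACCGCA. Capitals mark the match. These 8 windows touch no exon and are read in the same build and strand.
drongo intron, chr2L:848403-848503: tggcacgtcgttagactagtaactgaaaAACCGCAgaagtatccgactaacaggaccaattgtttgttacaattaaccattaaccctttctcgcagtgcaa
3R intergenic, chr3R:30258416-30258516: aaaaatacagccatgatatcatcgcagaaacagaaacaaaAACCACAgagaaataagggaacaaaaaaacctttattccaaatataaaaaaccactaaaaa
lncRNA:CR43883 cluster, summit near its right side, chr3L:822773-822873: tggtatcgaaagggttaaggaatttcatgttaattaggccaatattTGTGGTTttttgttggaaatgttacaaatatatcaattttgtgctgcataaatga
lncRNA:CR43883 cluster, leftmost summit, chr3L:817858-817958: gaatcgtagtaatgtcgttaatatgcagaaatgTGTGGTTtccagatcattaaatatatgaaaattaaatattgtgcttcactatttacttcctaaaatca
3R cluster at lncRNA:CR45638, chr3R:16210043-16210143: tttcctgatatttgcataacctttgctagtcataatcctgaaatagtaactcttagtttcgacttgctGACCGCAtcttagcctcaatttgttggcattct
lncRNA:let7C intron, chr2L:18466320-18466420: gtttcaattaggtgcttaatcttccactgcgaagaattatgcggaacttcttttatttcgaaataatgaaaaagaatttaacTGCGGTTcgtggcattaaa
bab1 intron, chr3L:1087463-1087563: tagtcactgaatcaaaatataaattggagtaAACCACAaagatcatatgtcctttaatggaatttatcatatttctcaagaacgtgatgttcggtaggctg
X intergenic, chrX:18925032-18925132: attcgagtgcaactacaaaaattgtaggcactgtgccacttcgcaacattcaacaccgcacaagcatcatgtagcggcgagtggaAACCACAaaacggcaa

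Within clusters, 12 of 299 summit windows held a Runx match (4.01%, interval 2.09% to 6.91%), against 204 of 7749 windows of the other thresholded peaks (2.63%, interval 2.29% to 3.01%). When clusters were rebuilt in each replicate's own list the difference between cluster and other summits was -1.11, 0.790 and -0.0250 percentage points, with a mean of -0.114 ± 0.952 (SD, n = 3). The direction of the thresholded set was thus seen in 1 of 3 replicates, and in windows of 100 bp to either side its difference fell from 1.38 to 0.777 points. The 12 windows lay in 10 clusters, and 11 of them were outside promoters. All 12 of the Runx-matching summits in clusters were found in all 3 replicates (interval 73.5% to 100%), against 70.0% of the 287 cluster summits without a match (interval 64.4% to 75.3%) and 65.0% of the whole thresholded set. Outside clusters, 56.4% of the 204 summits with a match were found in all 3 replicates (interval 49.3% to 63.3%). The median signal rank, where 1 is the strongest peak, was 2567 for the matching cluster summits and 4837 for the matching summits elsewhere. The part of signal rank in this difference in support was not tested, and the difference was noticed after the values were seen.

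Among the 53 clusters, 37 had 5 summits, 7 had 6, 6 had 7, and the 3 largest had 8, 10 and 12. Below the limit stood 98 chains of 4 summits, 320 of 3 and 1082 of 2, and 4233 peaks had no neighbour within 2000 bp. The median cluster was 4299 bp from first to last summit, with quartiles of 3530 bp and 5229 bp and a range of 2154 bp to 10673 bp. Together the clusters spanned 245 kb. The strongest cluster just inside the limit was at ph-p, with 5 summits, and its best summit ranked 27. The strongest chain just outside was the 4-summit chain at ush, whose best summit ranked 3. Summits found in all 3 replicates made up 68.6% of those in chains of 5 and 68.1% of those in chains of 4.

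Clusters of this kind also formed in each replicate's own list. Replicate 1 gave 47, replicate 2 gave 60 and replicate 3 gave 63 clusters, with 265, 338 and 354 peaks. They held 3.96% ± 0.590 of the peaks (SD, n = 3), and their median length was 4288 ± 152 bp. Of each replicate's own clusters, 58.8% ± 7.15 overlapped a cluster of the thresholded set.

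Spacing within clusters was uneven. The 246 distances between neighbours had a median of 944.5 bp, and the smallest was 199 bp. A group of 36 distances (14.6%) was at most 250 bp, 34 of them at most 220 bp, and only 5 were over 250 and up to 500 bp. The close pairs occurred in 27 of the 53 clusters. They were no feature of clusters alone: in chains of 2 to 4 summits, 430 of 2016 distances (21.3%) were at most 250 bp. In clusters rebuilt per replicate the close share was 15.97% ± 0.757 (SD, n = 3). Of the 299 cluster peaks, 16 shared their called interval with another summit, against 130 of all 8048 peaks. Keeping 1 summit per identical interval gave 51 clusters with 283 peaks. Whether a close pair marks separate enrichments was not tested. Counting summits at most 250 bp apart once left 34 clusters with 188 peaks, so the number of clusters depends on these pairs.

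**Figure D1:**
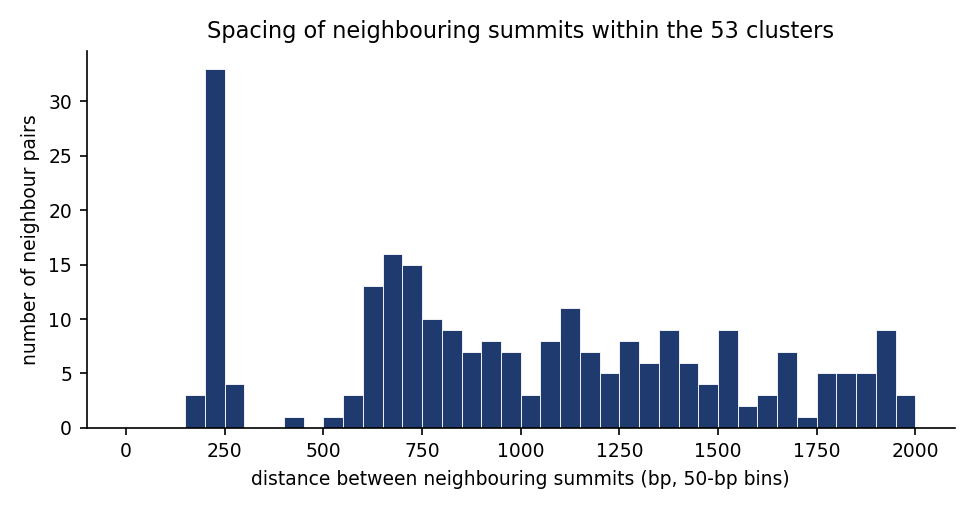
Number of neighbour pairs within the 53 clusters by the distance between their summits, in 50-bp bins. The 36 pairs at most 250 bp apart form the tallest part of the plot, few pairs lie between them and 500 bp, and no pair is closer than 199 bp.

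The largest cluster held 12 summits over 10673 bp on 3L (3239607 to 3250280, dm6). It ended 742 bp before the hairpin of mir-282, a microRNA, and had 3 summits each in or within 1 kb of the noncoding genes lncRNA:CR43626 and lncRNA:CR45424. Its assigned coding host, CG43389, is a short gene of 1030 bp with 3 of the summits, and CG12078 and CG17746 had 2 each. The strongest summit, at 3248817 in an exon, ranked 127 in the thresholded set and 131, 106 and 129 in the replicates. The promoter summit whose window is printed above ranked 162, and 170, 162 and 157 in the replicates. Both held nearly the same rank in every list. The replicates found 10, 10 and 11 of the 12 summits.

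At Raf, which encodes the MAP kinase kinase kinase that acts downstream of Ras, 10 summits covered 10375 bp on X (2293752 to 2304127). Of these, 9 lay at Raf, 7 of the 10 were intronic, and 1 was at a promoter. The strongest, in an intron 5236 bp from the nearest transcription start site (TSS), ranked 46 in the thresholded set and 46, 46 and 45 in the replicates. Each replicate found 9 of the 10 summits. The same summit, ranked 7970, was not found among the 8048 strongest peaks of any replicate. It lay 213 bp from its neighbour, in the same called interval. The best summit thus had nearly the same rank in every list.

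The third cluster, with 8 summits over 6816 bp, lay wholly within introns of sbb (2R, 18302898 to 18309714), which encodes the corepressor Scribbler. Its strongest summit ranked 269 in the thresholded set and 334, 223 and 258 in the replicates. Each replicate found 7 of the 8 summits. Replicates 1 and 3 missed the summit of rank 7412, which lay just before the widest distance of 1919 bp. Replicate 2 missed the summit of rank 5293. No replicate's own list chained 5 or more of the 8, which made sbb the only one of the 53 clusters with no counterpart of that size in any replicate.

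A further 6 clusters had 7 summits. At Moe, which encodes the actin-membrane linker Moesin, all 7 lay in the gene, 5 of them intronic. At shn, whose zinc finger protein acts in Dpp signalling, all 7 lay in the gene and 6 were intronic. At fng, a glycosyltransferase that modifies Notch, all 7 lay upstream of the gene, starting 2 bp outside its span, and 3 were within 1 kb. At Dyro, 7 summits were packed into 2513 bp upstream, the shortest of these clusters, with 3 neighbour distances of at most 250 bp. At CG6163, 2 of 7 lay at the gene and 4 at lncRNA:CR45036. The cluster at lncRNA:CR43883 had no coding gene within 1 kb of any summit.

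**Figure D2:**
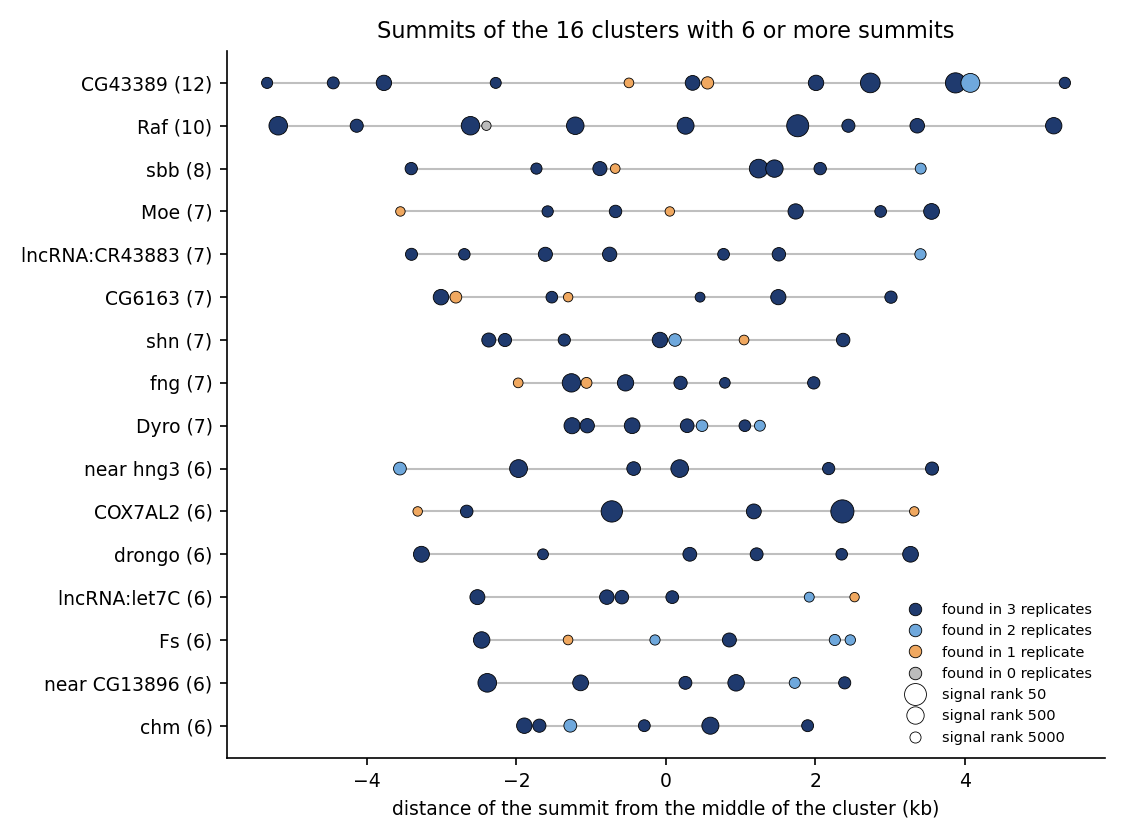
Position of each summit in the 16 clusters with 6 or more summits, in kb from the middle of the cluster; colour gives the number of replicates that found the summit and larger circles are stronger in signal rank. Cluster names are the coding host, otherwise a noncoding gene, otherwise the gene with the nearest start site, and the number of summits stands in brackets. Most of the larger circles were found in 3 replicates; an exception is the summit of rank 242 in the CG43389 cluster, found in 2.

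Some clusters joined very strong summits with weak ones. The strongest of all cluster summits lay between COX7AL2 and CG31668 on 2L (2202430) and ranked 24, and 25, 22 and 25 in the replicates. That cluster of 6 also held the summit of rank 69, but its summits of rank 7725 and 7706 were each found only in replicate 3. At ph-p, a subunit of Polycomb repressive complex 1, the best summit ranked 27, and 21, 16 and 26 in the replicates. Of its 5 summits, 3 were at promoters, and 4 were found in all 3 replicates. The neighbouring copy ph-d, a near-identical gene whose reads can be hard to place, had a cluster of its own of 5 summits in 2154 bp, the shortest of the 53. How reads shared by the copies were treated is not given in the sources used here.

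Other hosts with a high-ranking summit were Tlk, encoding a chromatin-linked kinase (rank 52), pum, an RNA-binding translational repressor (rank 84), CG13898 (rank 110), spi, the main ligand of the Egf receptor (rank 220), CHES-1-like, a forkhead factor (rank 263), and aop (rank 264). At pum the replicates found 3, 3 and 5 of 5 summits. At CHES-1-like they found 3, 4 and 4 of 5, and at spi each found 4 of 5. The high rank of the best summit therefore did not extend to the whole cluster at these genes. At arr, a Wingless co-receptor with a long cluster of 5889 bp, they found 5, 4 and 4 of 5. At drongo, an ArfGAP-domain protein, all 6 intronic summits were found in all 3 replicates.

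Several clusters stood near each other. Taking clusters at most 50 kb apart as a run, a distance set after the values were seen, gave 7 runs with 17 clusters. The run with the most clusters lay around emc on 3L, which encodes an Id-type helix-loop-helix protein that inhibits proneural factors. Its 4 clusters held 24 summits in 99968 bp, and 42 thresholded summits lay in that stretch in all. The clusters lay 19.9 kb on one side of emc and 5.29, 46.8 and 64.4 kb on the other, and none overlapped its span.

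Each replicate found the strongest summit of all 4 clusters around emc, but not all 4 formed as clusters in every replicate. The cluster 19.9 kb from emc had its strongest summit at rank 274, and 246, 392 and 246 in the replicates. The cluster nearest to emc had its strongest 4878 bp from the start of hng3, at rank 405, and 400, 435 and 411 in the replicates. The cluster at CG13898 had its strongest at rank 110, and 115, 120 and 94 in the replicates, and all 5 of its summits were found in all 3 replicates. In the cluster at lncRNA:CR43883, 6 of 7 were found in all 3. The strongest summit of that cluster ranked 1725, and 2012, 1995 and 1301 in the replicates. A cluster of 5 or more formed in all 3 replicates' own lists at 3 of these places, but at the cluster nearest to emc in replicate 2 only. The summits of that cluster were not missing from the other lists: replicates 1 and 3 each found all 6, and replicate 2 found 5. Its widest distance between neighbours was 1993 bp, just under the chaining limit. Whether small shifts of summits broke the chain in replicates 1 and 3 was not tested. Of the 4 clusters, 3 were wholly intergenic.

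A second run lay at aop on 2L, which encodes the ETS-domain repressor Yan, an antagonist of Ras signalling. It held 2 clusters of 5 summits in or overlapping the gene, and the COX7AL2 cluster of 6 lay 18.0 kb away. On X, a run of 2 clusters lay 5.41 kb and 23.2 kb on either side of brk, a repressor of Dpp targets, within the long gene CG1677 that spans brk. Other runs of 2 clusters lay at ph-d and ph-p and at CG14434. A further run joined the CG6163 cluster with one at lncRNA:CR45251 that had no coding host. The last joined the cluster at tara, a regulator of Polycomb and trithorax function, with the one at lncRNA:CR45638, also without a coding host.

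MicroRNA genes were neighbours of some clusters, and these were picked out after the values were seen. The transcript lncRNA:let7C is the precursor of mir-100, let-7 and mir-125, which control the timing of development and rise at metamorphosis. It held a cluster of 6 intronic summits (2L, 18463763 to 18468809), 2.6 to 3.5 kb before those hairpins. Its strongest summit ranked 1356, and 1047, 1918 and 1298 in the replicates, and 4 of 6 were found in all 3. The cluster after chm, a histone acetyltransferase gene, contained mir-275 and mir-305, with the nearest summits 446 and 606 bp away. All 6 of its summits lay in or near lncRNA:CR43857, and 5 were found in all 3 replicates. The strongest of these ranked 565, and 549, 512 and 616 in the replicates.

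Across the 299 cluster peaks, replicate 1 had a summit within 100 bp for 85.6%, replicate 2 for 83.3% and replicate 3 for 88.6%, a mean of 85.8% ± 2.68 (SD, n = 3). The other thresholded peaks were found at 84.2% ± 2.69. In all 3 replicates 213 cluster peaks were found (71.2%, interval 65.7% to 76.3%), 48 in 2, 35 in 1, and 3 in none. The share over the whole thresholded set was 65.0%, and among other peaks it was 64.7% (interval 63.7% to 65.8%). The thresholded set was made from the same replicates, so this is a description of how evenly they carry it. The share depended on the matching distance: it was 57.5% within 50 bp and 81.9% within 250 bp.

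Cluster peaks were stronger than the rest. Their median signal rank was 3174 against 4058, and 18.7% of them were among the 1000 strongest against 12.2% of other peaks. In each replicate's own clusters the median rank was 3185 ± 280 against 4061 ± 14.7 (SD, n = 3). At like rank their support was close to that of other peaks. Among ranks 1 to 2012, 98.1% of cluster peaks and 97.3% of others were found in all 3 replicates. Among ranks 2013 to 4024 the shares were 89.9% and 89.0%, and among ranks 4025 to 6036 they were 55.2% (interval 41.5% to 68.3%) and 61.9%. Among the weakest, ranks 6037 to 8048, they were 13.8% and 11.8%. A difference in support between cluster and other peaks of the same rank was not detectable with these numbers.

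**Figure D3:**
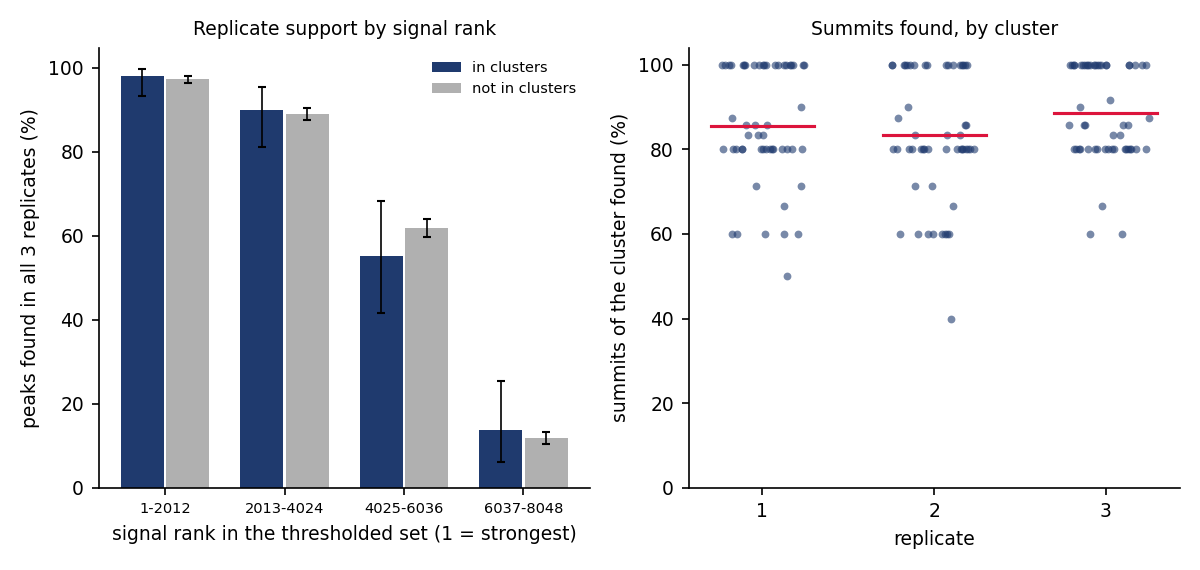
Left, share of peaks found in all 3 replicates by signal rank, for peaks in clusters and other peaks, with exact 95% binomial intervals; right, share of summits found in each replicate, 1 point per cluster, with a line at the share over all 299 summits. The shares fall from 98.1% to 13.8% for cluster peaks and from 97.3% to 11.8% for the others.

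Support for whole clusters was lower than for single summits. In 6 clusters every summit was found in all 3 replicates, and in 18 at least 5 summits were. A replicate's own cluster of 5 or more was counted if at least 1 of its summits lay in the cluster's span or within 100 bp. By this count, such a cluster was present in 3 replicates' own lists for 17 clusters, in 2 lists for 13 and in 1 list for 22. It need not hold 5 summits inside the span: at Tlk, replicates 2 and 3 were counted with 4 summits there. When only thresholded summits found in the other 2 replicates were kept, 18 clusters were left without replicate 1, 19 without replicate 2 and 17 without replicate 3, in place of 53. The summits were still those called from all 3 replicates together, so this is a filter on support and no replicate was removed from the calling. The 15 clusters that were left in each of these cases were those at CG43389, Raf, lncRNA:CR43883, CG6163, fng, Dyro, drongo, chm, tara, CG13898 and CG1677 (the one near CBP), the 2 on either side of emc at 19.9 and 5.29 kb, and the 2 intergenic clusters on 2L (15385578 to 15389158) and 3R (30255638 to 30259168). By size, 10 of the 16 clusters with 6 or more summits and 5 of the 37 with 5 were among them; a cluster of 5 is lost with any 1 of its summits, so the rule itself favours the larger ones. By place, 5 of the 6 wholly intergenic clusters and 2 of the 9 wholly intronic ones were. At the other end stood kay, the Fos gene, where the replicates found 3, 2 and 5 of 5 summits and 1 summit was found in all 3.

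Cluster summits lay away from promoters more often than other summits, with a promoter summit being one within 500 bp of any TSS. Of cluster peaks, 26.8% were at promoters (interval 21.8% to 32.2%), against 43.9% of others and 46.3% of peaks with no neighbour. In clusters rebuilt per replicate the promoter share was 29.1%, 24.6% and 23.2%, against 47.8%, 39.1% and 44.1% of the replicate's other peaks. The groups did not overlap, and the difference was -18.1 ± 3.23 percentage points (SD, n = 3; exact permutation p = 0.25 by sign change, two-sided, the smallest that 3 replicates allow). It kept its direction under all alternatives run. It was also present in each of the rank ranges above: at ranks 1 to 2012 it was 24.0% against 49.3%, and at ranks 6037 to 8048 it was 32.8% against 40.3%. The median distance to the nearest TSS was 1317 bp against 747 bp.

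Intergenic summits made up 25.1% of cluster peaks and 15.9% of others, and in the replicates the difference was 8.22 ± 2.74 points, higher in 3 of 3 (exact permutation p = 0.25, the smallest possible). Intronic summits made up 46.8% against 37.8%, with a replicate difference of 10.6 ± 2.15 points, again higher in 3 of 3 (exact permutation p = 0.25). The intronic difference did not hold in the best supported clusters. It was -5.13, -8.01 and -9.00 points when summits had to be found in the 2 other replicates, and -5.29 points in clusters built from the strongest 4024 peaks. Exonic summits were rare, at 1.34% against 2.36%. The share of G and C in the summit window was 34.1% against 33.7%, a replicate difference of 0.198 ± 0.443 points, within the spread between replicates.

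**Figure D4:**
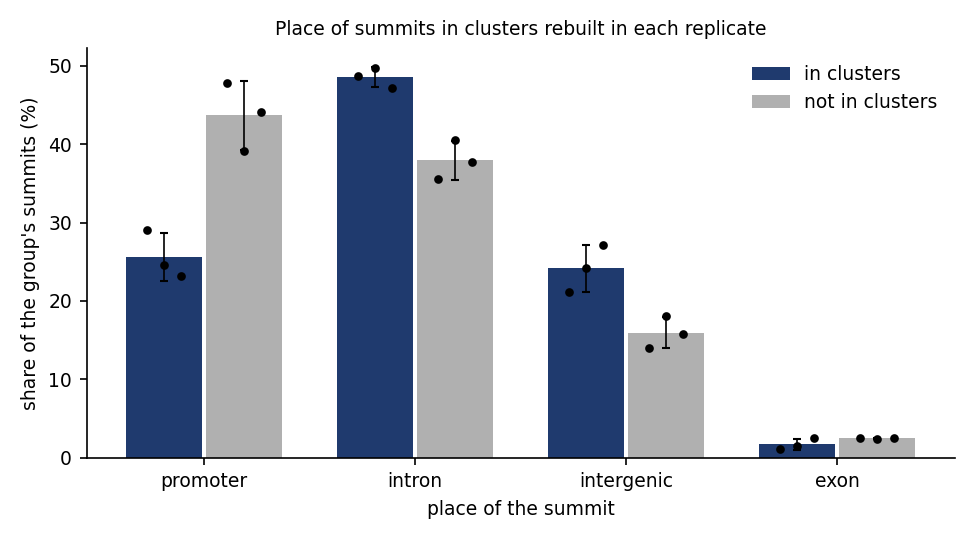
Share of summits at promoters, in introns, in intergenic sequence and in exons, for peaks in clusters rebuilt in each replicate's own list and for its other peaks; bars are means, error bars SD, and the 3 points are the replicates. Promoter shares are 23.2% to 29.1% in clusters and 39.1% to 47.8% elsewhere.

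By cluster, 9 were wholly intronic, 6 wholly intergenic, and 16 had no promoter summit at all. The strongest summit lay in an intron in 29, at a promoter in 12, in intergenic sequence in 11 and in an exon in 1. In 10 clusters most summits were at promoters, such as spi, ced-6 (an engulfment adaptor) and whd (a carnitine palmitoyltransferase), with 4 of 5 each. Each of these 3 also had summits in or within 1 kb of another coding gene.

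In 29 clusters all summits lay within 1 coding gene or 1 kb of it, and in 22 of those all were inside the gene's span. In 15 only some were, and 9 clusters had no coding gene. Of 13968 protein-coding genes, 28 had a whole cluster (0.200%), meaning 5 or more of its summits in the span or 1 kb to either side. These genes were long, with a median span of 26185 bp against 2165 bp for all coding genes and 3504 bp for genes with a peak. They were not longer than the 306 genes with 5 or more peaks in any spacing, which had a median of 39651 bp. Of those 306, 28 had a cluster, so most genes with many peaks had them spread out. The number of genes with a cluster was 65 when 5 kb to either side was allowed.

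Among 18 lists of genes of known pathways and cell types with 267 distinct genes, 9 had a cluster, against 0.200% of all coding genes. Genes with a cluster were long, as given above, and the part of gene length in this count was not tested. The lists were chosen with earlier results of these data known, so the count is a description and no test of the lists. In the Egfr and Ras list, 3 of 19 genes had one, Raf, spi and aop, which are a kinase, a ligand and a nuclear repressor of the pathway. In the list of zinc finger and BTB regulators, 3 of 19 did: psq, bab1 and sbb. The Wingless list had 1 of 19 (arr), the Dpp and activin list 1 of 20 (shn), the cytoskeleton and muscle list 1 of 18 (shot, a spectraplakin), and the retinal and appendage patterning list 1 of 29, which was bab1 again. Of the genes named here, only Raf had a cluster among the 15 that were left whichever replicate was not required. At sbb, no replicate's own list formed a cluster.

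The remaining 12 lists had no gene with a cluster, which at 0.200% of all coding genes is what lists of this size would mostly show, so nothing about these genes is read from it. They included the 24 ecdysone receptors and early response genes, 20 of which had a peak, the 15 crystal cell genes, 9 with a peak, the 7 Runx family genes and cofactors, 4 with a peak, and the 6 GATA factors and cofactors, 4 with a peak. None of the 19 Notch genes had a whole cluster, although 3 cluster summits lay at fng. The others with none were the lists for the Hedgehog pathway (11 genes), Hippo pathway (14), Hox and homeotic genes (10), JAK/STAT pathway (9), cell adhesion and guidance (20), circadian clock (9) and insulin pathway (14). The lz gene itself had 3 peaks, in chains of at most 2, and no cluster.

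Of the 16 motifs searched in summit windows, the DRE, the site of the promoter factor DREF (letters TATCGATA), differed most evenly across replicates. It was in 1 of 299 cluster windows (0.334%, interval 0.00847% to 1.85%) and 128 of 7749 others (1.65%, interval 1.38% to 1.96%). In the replicates the difference was -1.72, -1.44 and -1.61 points, a mean of -1.59 ± 0.140 (SD, n = 3; exact permutation p = 0.25, the smallest possible). The DRE is a promoter element, and cluster summits lay at promoters less often. The part of place in the DRE difference was not tested. Among promoter summits alone the DRE was in 1 of 80 cluster windows (1.25%, interval 0.0316% to 6.77%) and 3.38% of 3405 others. Outside promoters it was in 0 of 219 and 13 of 4344 (0.299%). At these numbers a difference at equal place was not detectable.

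The insulator protein BEAF-32 has the core CGATAT, which overlaps the DRE letters in part. It was in 4.01% of cluster windows and 5.72% of others, with a replicate difference of -2.32 ± 0.839 points, lower in 3 of 3 (exact permutation p = 0.25). At promoters the core was in 4 of 80 cluster windows (5%, interval 1.38% to 12.3%) and 8.05% of others. Outside promoters it was in 3.65% and 3.89%. At these numbers a BEAF-32 difference at equal place was not detectable. The homeodomain core TAATTA was in 6.02% against 9.59%, and -1.69 ± 1.20 points in the replicates, lower in 3 of 3. The GATA letters were AGATAA and its form AGATAG, with the pair that starts with T, which is TGATAA and its form TGATAG. They were in 24.1% against 22.2%, with a replicate difference of 0.343 ± 1.33 points, within the spread. The Grainyhead letters, AACCGGTT and the form AACTGGTT, were in 0 of 299 cluster windows, which allows a share of up to 1.23%, and in 0.736% of others, with a replicate difference of -0.222 ± 0.266 points that was lower in 2 of 3.

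The other motifs were in at most 5.34% of windows of either kind. The Ets letters CCGGAAA with the form CCGGAAG were in 0.334% against 1.20%, and -0.759 ± 0.226 points in the replicates. The Suppressor of Hairless letters TGGGAA were in 4.01% against 5.34%, and -1.20 ± 0.503 points in the replicates. The ecdysone receptor core AGGTCA was in 1.34% against 1.82%, and -0.676 ± 0.445 points in the replicates. These were lower in 3 of 3 replicates. However, the last pair turned to higher in clusters of the thresholded set when summits had to be found in the other 2 replicates. For Suppressor of Hairless this was so with replicate 1 or 2 not required, and for the receptor core with any. The GAGA letters (GAGAGA) were in 4.01% against 3.46%, and 1.91 ± 1.31 points in the replicates, higher in 3 of 3. The E-box CAGCTG was in 1.00% against 3.11%, but -0.845 ± 0.799 points in the replicates and lower in 2 of 3. For the E-box CACGTG, the Zelda core CAGGTA, the FTZ-F1 letters AAGGTCA and the AP-1 letters (TGACTCA with the form TGAGTCA), the replicate difference was under its SD. The STAT letters TTCNNNGAA were in 2.68% against 3.21%, opposite in sign to all 3 replicates. With 16 motifs and a smallest p of 0.25, no motif difference can pass an adjusted threshold.

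By chromosome, 2L had 13 clusters, X 12, 3L 11, 2R 9 and 3R 8, and the 27 peaks of chromosome 4 formed none. The share of peaks in clusters ran from 2.13% on 3R (interval 1.53% to 2.89%) to 4.74% on 2L (interval 3.71% to 5.96%). In the replicates 3R had 2.32%, 2.21% and 2.00%, below 2L, 3L and X in all 3. The highest share on 2L did not recur: with 2.94%, 3.90% and 5.99% it was below 3L and X in each replicate.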

How the data were processed

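The data are peak lists from 3 biological replicates of 1 group. Calling was done for each replicate and for the pooled replicates, and the pooled calls were thresholded by the irreproducible discovery rate, per the labels and deposited file lists. The aligner, peak caller, threshold level and handling of repeats were not given in the sources used here. Each value of the signal column is the authors' own, as deposited, and served to rank peaks inside each list, since scales differ between lists. The −log10 q-value column, as deposited, holds 1 distinct value in the thresholded set and ranks nothing. Without read counts in the lists the depth is unknown, and precision is that of counts of peaks.

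Summits were chained on dm6 and annotated with Ensembl gene models; windows came from the RefSeq genome. Coordinates are 1-based. A summit was found in a replicate if that replicate's 8048 strongest peaks had a summit within 100 bp. Places were assigned in the order promoter, exon, intron, intergenic. A cluster's host was the coding gene with most of its summits inside it or within 1 kb of its ends. Intervals are exact (Clopper-Pearson, 95%). Differences between cluster and other peaks within each replicate's list were tested over the 3 replicates by an exact two-sided sign-change permutation test. The code was tested on simulated peaks. Genes named were lz, hosts of the 10 clusters with the most summits, the 10 longest and the 10 with the strongest summit, and up to 4 list members with a cluster; others were picked after their values were seen. The members, the 18 lists and the 16 motifs were chosen with earlier results of these data known; 5 list symbols were not matched and 4 were matched by another name. Alternatives changed the distance, the least number of summits, the matching distance, the windows, the list and the replicates. The tools were matplotlib 3.10.9, scipy 1.17.1, pandas 2.3.3 and numpy 2.4.6 under Python 3.11.15.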

Additional observations from a re-analysis of the deposited data

How the results depend on the processing

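The rule sets the clusters. With neighbours at most 1000 bp apart there were 5 clusters, 28 peaks (0.348% of the set), a median length of 2666 bp, support in all 3 replicates of 67.9%, a median rank of 3777, differences of -7.61 (promoter), -20.3 (intron, reversed) and -1.62 points (G and C), and 0.00716% of coding genes with a cluster (28 genes or 0.200% as reported). At 3000 bp there were 131 clusters, 800 peaks (9.94%), 6571 bp and 0.465% of genes. With 4 or more summits there were 151 clusters, 691 peaks (8.59%), 3382 bp, -12.2 points (promoter) and 0.723% of genes. With 6 or more there were 16 clusters, 114 peaks (1.42%), 6282 bp, support of 75.4%, rank 2758, -24.3 (promoter), 0.495 (intron) and 1.31 points (G and C), and 0.0430% of genes. The strongest 4024 peaks gave 6 clusters, 37 peaks (0.919%), support of 86.5%, rank 1455, -26.9 (promoter), -5.29 (intron, reversed) and 2.87 points (G and C), and 0.0143% of genes.

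Keeping only summits found in 2 replicates gave, over the 3 choices, 17 to 19 clusters, 93 to 103 peaks, 1.63% to 1.71% of the peaks kept, a median length of 4437 to 4611 bp, support of 93.2% to 95.7%, rank 2077 to 2344, -26.4 to -25.2 points (promoter), -9.00 to -5.13 points (intron, reversed), -0.525 to -0.0248 points (G and C), and 0.0358% to 0.0501% of genes. The motif differences were 1.45 to 2.64 points for Runx, -1.47 to -1.16 for the DRE, -0.915 to 0.827 for Suppressor of Hairless and 0.223 to 0.334 for the ecdysone receptor core, the last 2 reversed. Support rises here because the peaks kept already had 2 replicates.

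Counting summits at most 250 bp apart once, chosen after seeing the data, gave 34 clusters, 188 peaks (2.48%), 4840 bp, support of 76.6%, rank 2709, 5.37 points (intron) and 0.115% of genes. Support was 57.5% and 81.9% with matching within 50 and 250 bp and 89.0% with all calls of each replicate. The promoter difference was -13.8 points with TSS within 1000 bp, the intron difference 11.4 points against peaks with no neighbour, and 0.465% of genes had a cluster with 5 kb of flank.

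Motif windows of 100 bp to either side gave -2.83 points for the DRE and 0.777 for Runx. Where the cause of a shift is not built into the alternative, it was not tested. Read depth is unknown, so it is not known which weak summits it limits.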
